A study of Rattus norvegicus with 9 samples.

Results

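The genes of the constitutive proteasome were examined in kidney RNA of 9 Sprague-Dawley rats, an outbred laboratory stock. Members were the genes with a symbol starting Psma, Psmb, Psmc or Psmd, read by a probe set that the array annotation lists with exactly 1 gene, leaving out the inducible subunits Psmb8, Psmb9 and Psmb10. The rule gave 34 of the 14217 genes with such a probe set, and where a gene had several, the one brightest on average across the 9 arrays stood for it. All 34 passed the intensity minimum, a mean log2 value of 5, which left 10337 genes for testing. Of these members, 13 encode the core particle and 17 the regulatory cap. The 3 genes Psmd5, Psmd9 and Psmd10 encode chaperones that help to assemble the cap, and Psmc3ip, a meiotic recombination factor, shares only the letters of the symbol. A further 2 probe sets list a proteasome gene together with another gene and named none, so the catalytic subunit Psmb6 was not analysed here.

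The rats were bought at 8 weeks of age, acclimated for 1 week and injected intraperitoneally every day for 7 days. The vehicle group received saline, and the other groups received colistin methanesulfonate sodium (CMS), from which the body releases colistin, an antibiotic of the polymyxin class, at 25 mg/kg (CMS25) or 50 mg/kg (CMS50). Each group had 3 rats with 1 array each, which the labels call biological replicates, and the sex of the rats is not given in the sources used here. The labels record no lesion after vehicle, basophilic and dilated tubules in CMS25, and necrosis, tubular degeneration and casts in CMS50. RNA came from the whole right kidney, so every cell type of the organ contributed, and fewer cells of a type cannot be told apart from less RNA per cell.

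The proteasome degrades proteins that carry ubiquitin chains. Its core particle is a barrel of stacked rings, with α subunits (Psma genes) at the ends and β subunits (Psmb genes) in the middle, some of which carry the protease sites. The regulatory cap sits on the barrel: its ATPase ring (Psmc genes) unfolds substrates and threads them into the core, and its non-ATPase subunits (Psmd genes) bind and remove ubiquitin and hold the cap together. During inflammation, interferon induces Psmb8, Psmb9 and Psmb10, which take the places of constitutive catalytic subunits to form the immunoproteasome. When proteasome capacity falls short, the transcription factor NFE2L1 is known to raise proteasome genes through antioxidant response elements in their promoters.

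All values are deposited log2 intensities, and a change is a difference of group means on that scale, with its standard error (SE) from limma. Adjusted p-values are Benjamini-Hochberg values over the 10337 genes, and a gene counts as called below 0.05. Of the kidney markers on the array, 12 of 12 for proximal tubule, 5 of 6 for loop and distal tubule and 6 of 6 for collecting duct passed the intensity minimum. Macrophage and myeloid markers moved with the higher dose: 14 of the 14 that passed the minimum were called higher in CMS50 than in vehicle, with a median change of 1.27, and Cd163 lay below the minimum. The summed linear intensity of the 14 ran from 1228 to 1350 in vehicle, from 1070 to 1410 in CMS25 and from 2412 to 4358 in CMS50. For proximal tubule, 1 of 12 markers was called higher and 3 lower in CMS50. Lower calls were 3 of 5 for loop and distal tubule (median change -0.79), 2 of 6 for collecting duct (-0.33), 2 of 4 for podocytes (-0.82) and 1 of 4 for endothelium (-0.40). Higher calls were 5 of 6 for fibroblasts and matrix (1.47), 9 of 10 for the cell cycle (1.25) and 1 of 2 for lymphocytes (0.50). The array held 8, 12 and 8 markers of these 3 lists and 6 for endothelium, and the rest lay below the minimum. The minimum is a mean over all 9 arrays, so a marker could pass it through CMS50 alone, and the higher calls are no independent evidence. Of all genes tested, 19.6% were called higher and 11.4% lower. The difference between the 3′ and 5′ control probe sets of beta-actin, a reading of RNA quality, was 2.98 ± 0.155 in vehicle, 3.17 ± 0.120 in CMS25 and 3.58 ± 0.0854 in CMS50 (log2, SD, n = 3). The part of the cell markers and of RNA quality in the results was not tested.

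The comparison of the higher dose with vehicle asked which genes differed in the kidneys with necrosis and casts. Constitutive proteasome genes changed little there. Of the 34 members, 3 rose and 0 fell, so that 8.82% of the members were called against 31.1% of all genes tested (19.6% higher and 11.4% lower). The genes that rose were the core subunit Psmb4 and the cap subunits Psmc3 and Psmd2. The largest change of any member was 1.28-fold, and 0 of the 34 members changed by 2-fold or more, against 634 of the 10337 genes tested. Changes of that size were uncommon among all genes, so a count of 0 among 34 says little by itself. Within 0.25 of vehicle on the log2 scale lay 94.1% of the members and 52.2% of all genes, and for 31 members the whole 95% interval of the change lay within 0.5 of 0. The median change was 0.04 over the members and 0.05 over all genes.

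The count of 3 rested on small changes near the threshold. It was 0 without vehicle replicate 1, vehicle replicate 2, CMS50 replicate 1 or CMS50 replicate 2, and 1 without vehicle replicate 3. Calls over all genes dropped too, from 31.1% in either direction to 20.8%, 17.9%, 16.6%, 16.3% and 20.7% in these settings, in that order. With each array centred on its median, 0 members were called higher and 2 lower (Psma2 and Psmd12). Centring took the calls over all genes from 2028 higher and 1183 lower to 1457 and 1638.

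**Figure D1:**
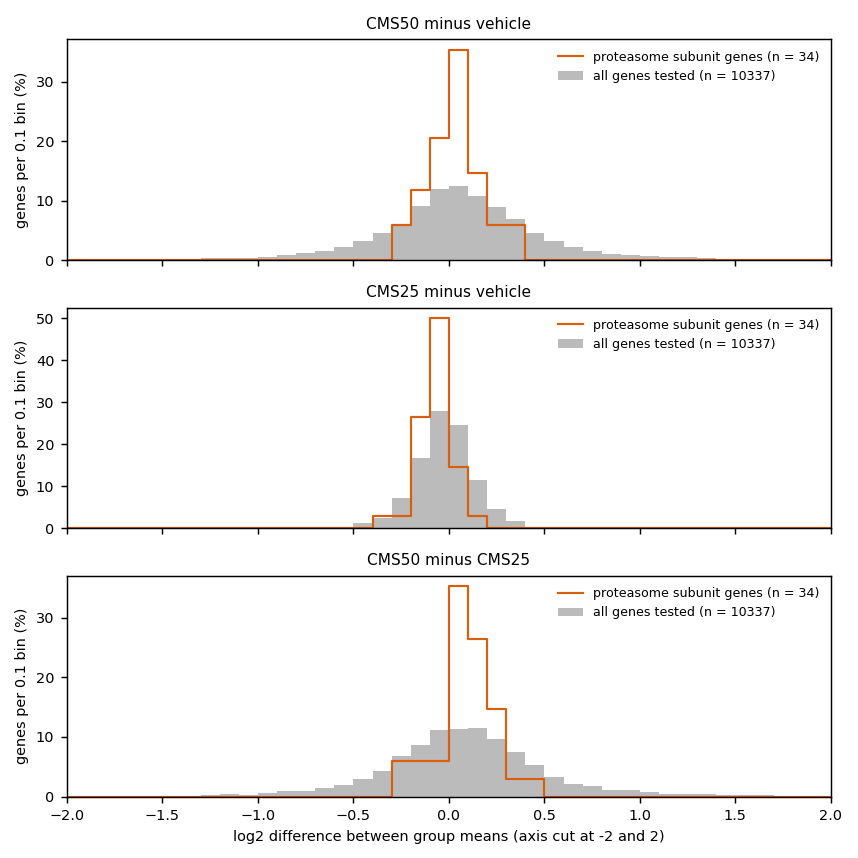
Share of genes (%) in each 0.1-wide bin of the log2 difference between group means, in the 3 comparisons. Grey bars show all 10337 genes tested, and the orange line shows the 34 members, Psmc3ip among them. The axis is cut at -2 and 2. In CMS50 minus vehicle the members run from -0.25 to 0.36, while all genes run from -5.69 to 6.32, past the ends of the axis.

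Psmb4, a β subunit without a protease site, read 11.30, 11.25 and 11.22 in vehicle, 11.16, 11.03 and 11.18 in CMS25, and 11.73, 11.67 and 11.38 in CMS50. All CMS50 arrays lay above all vehicle and CMS25 arrays, with the third CMS50 rat nearest to them. Psmb4 rose 1.26-fold from vehicle to CMS50 (log2 change 0.34, SE 0.10, limma adjusted p = 0.0377), a call lost in 8 of 20 alternatives. Psmc3, an ATPase of the cap ring, read 9.98, 9.89 and 10.04 in vehicle, 9.92, 10.01 and 9.92 in CMS25, and 10.46, 10.36 and 10.17 in CMS50. Here too the CMS50 arrays stood clear of both other groups, and replicate 3 was again the lowest of them. Psmc3 rose 1.28-fold (log2 change 0.36, SE 0.10, limma adjusted p = 0.0221), a call lost in 5 of 20 alternatives. Psmd2, a large scaffold subunit at which ubiquitin shuttle factors dock, read 10.37, 10.25 and 10.30 in vehicle, 10.32, 10.33 and 10.36 in CMS25, and 10.58, 10.50 and 10.51 in CMS50. The CMS50 arrays were again above all others. The rise of Psmd2 was 1.17-fold (log2 change 0.23, SE 0.07, limma adjusted p = 0.0442), it was 0.14 with arrays centred on their median, and its call was lost in 14 of 20 alternatives.

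The promoters of the genes called in any comparison are shown beside those of the core subunits Psmb5 and Psmb2, whose windows hold the core letters of an antioxidant response element. Each line gives the 120 bases before the annotated start, read from RefSeq on the rat build GRCr8 in the direction of transcription. On either strand, capitals mark the response element core TGACNNNGC, the CCAAT box, named for its letters, or the GC box. The letters of the GC box are GGGCGG. In Psmb2 the response element shares bases with both the CCAAT box and the GC box, and in Psmc3 a pair of GC boxes overlap.
Psmb4: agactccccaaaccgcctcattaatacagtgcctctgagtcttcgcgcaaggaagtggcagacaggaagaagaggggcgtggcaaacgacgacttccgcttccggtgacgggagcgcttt
Psmc3: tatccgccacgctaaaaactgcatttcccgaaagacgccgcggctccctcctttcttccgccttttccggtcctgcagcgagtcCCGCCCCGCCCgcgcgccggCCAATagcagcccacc
Psmd2: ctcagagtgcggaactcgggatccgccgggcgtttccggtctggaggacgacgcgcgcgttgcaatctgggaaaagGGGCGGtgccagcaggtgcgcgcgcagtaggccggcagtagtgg
Psmb1: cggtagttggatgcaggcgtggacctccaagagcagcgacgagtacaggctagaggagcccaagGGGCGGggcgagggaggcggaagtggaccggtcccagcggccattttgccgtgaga
Psmb3: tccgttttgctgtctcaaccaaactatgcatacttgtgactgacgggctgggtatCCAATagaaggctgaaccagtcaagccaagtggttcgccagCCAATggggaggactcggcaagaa
Psmb5: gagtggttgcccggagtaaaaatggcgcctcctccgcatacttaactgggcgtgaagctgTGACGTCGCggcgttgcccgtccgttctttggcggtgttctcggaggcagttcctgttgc
Psmb2: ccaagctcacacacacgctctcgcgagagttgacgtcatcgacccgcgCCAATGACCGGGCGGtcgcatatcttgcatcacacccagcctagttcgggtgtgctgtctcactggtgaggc
These stretches lie at chr2:185134562-185134681 for Psmb4, chr3:97487523-97487642 for Psmc3, chr11:93763389-93763508 for Psmd2, chr1:65134771-65134890 for Psmb1, chr10:83193667-83193786 for Psmb3, chr15:32047380-32047499 for Psmb5 and chr5:144254938-144255057 for Psmb2. Psmc3, Psmb3 and Psmb2 lie on the plus strand and the others on the minus strand.

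Promoter windows of 300 bases, 250 before and 50 after the start, were matched for 30 of the 34 members. The response element core occurred in 6 of these 30 windows (20%) and in 12.2% of 27457 rat promoters of the same length. The 6 genes were Psma3, Psmb2, Psmb5, Psmd1, Psmd3 and Psmd9, with changes from 0.03 to 0.20 in CMS50 against vehicle, and 0 of them passed the test. CCAAT boxes occurred in 17 of the 30 windows (56.7%, against 37.7% of all promoters), in 9 of 12 for the core particle and 5 of 14 for the cap. GC boxes occurred in 21 of 30 (70%, against 34.9%), in 10 of 12 for the core particle and 8 of 14 for the cap. The 27457 promoters were not limited to genes past the intensity minimum, as the members were, so these shares compare unlike sets. The windows of the genes that rose were not alike: Psmb4 had no match in the stretch shown, Psmd2 had a GC box and Psmc3 had both box types. A match describes letters in the window, and the lack of one says only that these letters are not there.

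Among the α subunits, whose ring gates the barrel, 0 of 7 genes passed the test in CMS50, and their changes ran from -0.17 to 0.06. Psma2 differed most. It read 10.17, 10.27 and 10.24 in vehicle, 10.13, 10.05 and 10.16 in CMS25, and 10.01, 10.09 and 10.06 in CMS50, with every CMS50 array below every vehicle array. Its change was -0.17 (95% interval -0.34 to 0.00048, limma adjusted p = 0.116). Psma6 differed by -0.06, Psma7 by -0.01, Psma3 by 0.03, Psma1 by 0.05 and Psma5 by 0.06, while Psma4, at 9.52 in both groups, was the member nearest to no difference.

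The β ring had a median change of 0.12, and Psmb4 was the 1 of its 6 measured genes that passed. Psmb1 and Psmb3, which like Psmb4 carry no protease site, differed by 0.16 (limma adjusted p = 0.145) and 0.15 (limma adjusted p = 0.212). For both, every CMS50 array lay above every vehicle array. Psmb2, another subunit without a site, differed by 0.07.

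Neither measured catalytic subunit of the core passed the test. Psmb5, the chymotrypsin-like protease, read 10.90, 10.91 and 10.85 in vehicle, 10.83, 10.97 and 10.90 in CMS25, and 10.98, 10.99 and 10.94 in CMS50. The CMS50 arrays lay just above the vehicle arrays and overlapped those of CMS25, and the change from vehicle was 0.09 (95% interval -0.08 to 0.26, limma adjusted p = 0.406). Psmb7, the trypsin-like protease, read 8.61, 8.71 and 8.99 in vehicle, 8.74, 8.80 and 8.90 in CMS25, and 8.61, 8.57 and 8.65 in CMS50. Its vehicle arrays were spread the most of any member (SD 0.198) and overlapped those of CMS50. The change was -0.16 (95% interval -0.41 to 0.08, limma adjusted p = 0.277).

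These catalytic subunits have inducible counterparts, Psmb8 for Psmb5 and Psmb10 for Psmb7. Within each array, the log2 ratio of Psmb8 to Psmb5 stood 2.05, 1.74 and 1.24 above the vehicle mean in the CMS50 rats, while the vehicle rats ran from -0.23 to 0.28 and the CMS25 rats from 0.02 to 0.25. The ratio of Psmb10 to Psmb7 stood 1.92, 1.87 and 1.18 above the vehicle mean in CMS50, and ran from -0.03 to 0.03 in vehicle and from -0.17 to 0.09 in CMS25. For both pairs the CMS50 rats were clear of both other groups. The change from vehicle was 1.68 (SE 0.28) for the first pair and 1.66 (SE 0.24) for the second, with a two-sided exact permutation p of 0.1 each, the smallest that 3 against 3 can give (0.15 adjusted over 6 tests). Psmb8 itself rose by 1.76, Psmb9 by 1.33 and Psmb10 by 1.49 (limma adjusted p = 0.0017, 0.0020 and 0.0020), a rise known from earlier results of these arrays and so not independent evidence.

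**Figure D2:**
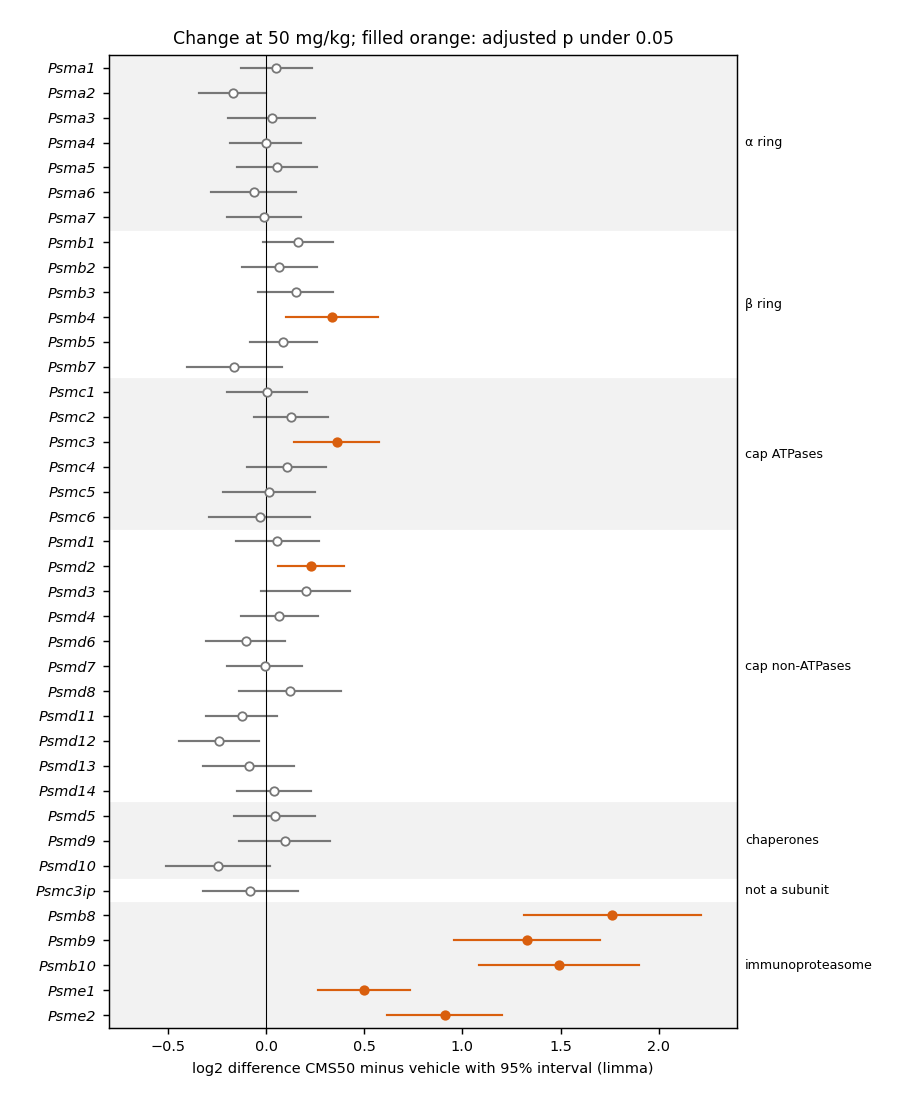
Change of each member, Psmc3ip included, in CMS50 against vehicle on the log2 scale. Lines give the 95% interval from limma, and filled orange points mark a limma adjusted p under 0.05. The 5 immunoproteasome genes stand at the bottom. Most constitutive genes lie within 0.25 of 0, while the immunoproteasome genes run from 0.50 to 1.76.

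In the cap, 2 of 17 genes rose and the median change was 0.04. Of the 6 ATPases that unfold substrates, Psmc3 was the 1 that passed, and Psmc1, Psmc2, Psmc4, Psmc5 and Psmc6 differed by 0.01, 0.13, 0.10, 0.01 and -0.03. Of the 11 non-ATPase subunits, Psmd2 was the 1 that passed. Psmd1, the other large scaffold subunit, differed by 0.06, and Psmd4, a receptor for ubiquitin chains, by 0.07. The deubiquitinase Psmd14 differed by 0.04 and its partner Psmd7 by -0.01.

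The lid subunits, which hold that deubiquitinase in place, differed from each other in sign. Psmd3 (0.20, limma adjusted p = 0.158) and Psmd8 (0.12) were on the higher side, and Psmd6 (-0.11), Psmd11 (-0.12), Psmd12 (-0.24) and Psmd13 (-0.09) on the lower side. Psmd12 read 8.94, 9.12 and 8.94 in vehicle, 8.60, 8.74 and 8.77 in CMS25, and 8.76, 8.69 and 8.82 in CMS50. Both dose groups lay wholly below vehicle, and the change in CMS50 did not pass (limma adjusted p = 0.0692). Psmd8 had the widest spread among the CMS50 rats of any member (SD 0.224), with 9.52 and 9.49 in replicates 1 and 2 and 9.12 in replicate 3, which lay below all 3 vehicle arrays.

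Among the assembly chaperones, Psmd10 (gankyrin) read 8.58, 8.75 and 8.73 in vehicle, 8.83, 8.37 and 8.63 in CMS25, and 8.39, 8.46 and 8.47 in CMS50. The CMS50 arrays lay below all vehicle arrays, and the change of -0.25 did not pass (limma adjusted p = 0.139). Psmd5 and Psmd9 differed by 0.04 and 0.09, and Psmc3ip by -0.08.

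Counting members whose CMS50 and vehicle arrays did not overlap gave 6 higher (Psmb1, Psmb3, Psmb4, Psmb5, Psmc3 and Psmd2) and 4 lower (Psma2, Psmd10, Psmd11 and Psmd12), while 30.6% and 19.1% of all genes were clear of vehicle in these directions. The core particle had 4 of the higher and 1 of the lower genes, and the cap 2 and 2. In sign, 21 members were higher and 13 lower, 24 and 10 after cyclic loess scaling, and 11 and 23 with arrays centred on their median, which lowers every gene by the same 0.09. The share of all genes on the higher side was 56.2%, 54.3% and 45.5% in these settings. Across groups, members varied little between rats: their median SD was 0.0723 in vehicle, 0.0836 in CMS25 and 0.0721 in CMS50, against 0.111, 0.143 and 0.137 over all genes.

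**Figure D3:**
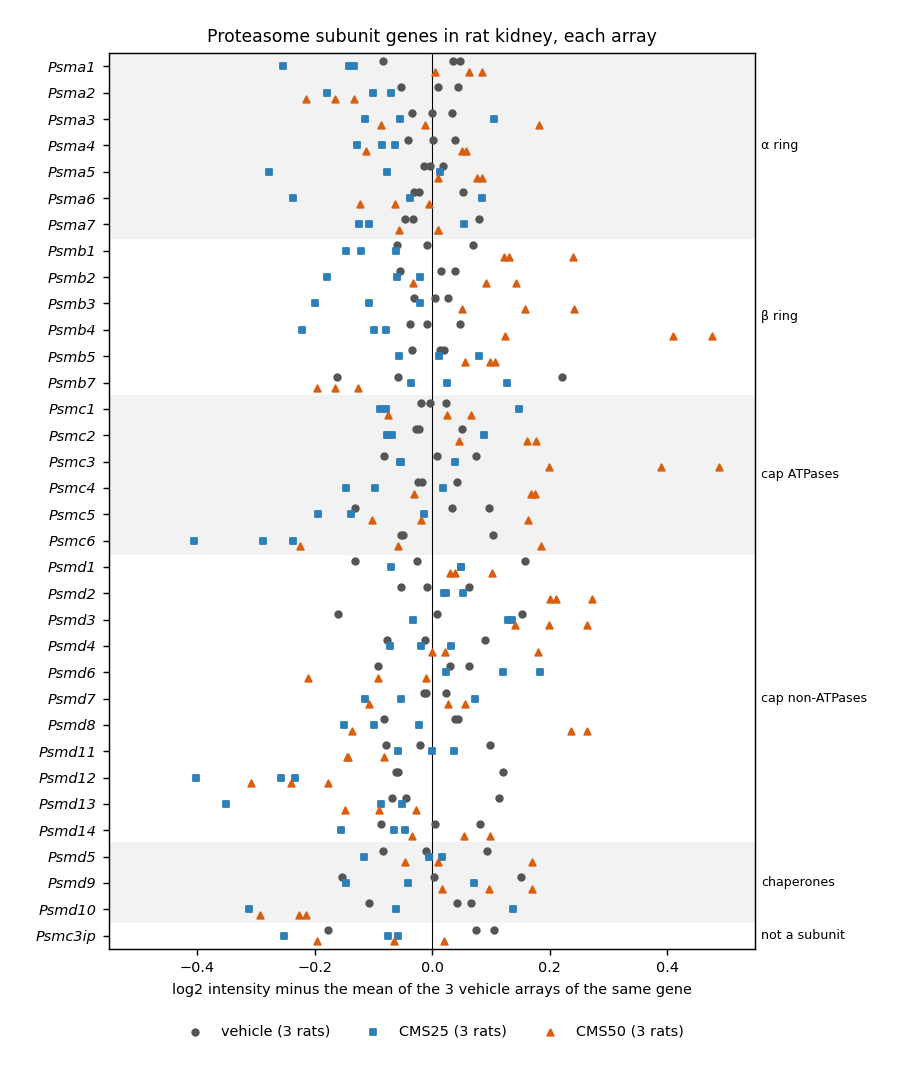
Log2 intensity of each of the 34 genes on each of the 9 arrays, minus the mean of the 3 vehicle arrays of the same gene. Each rat has 1 point, and the genes are grouped by their place in the proteasome, with Psmc3ip, which has none, apart. CMS50 points (orange triangles) of Psmb4, Psmc3 and Psmd2 lie clear of the vehicle points, and those of most other genes are mixed with them.

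The lower dose was compared with vehicle to ask what changed where the labels record basophilic and dilated tubules. No member passed the test, as for all genes, of which 0% were called (0 of 10337 in limma). At an unadjusted p under 0.05 there were 2 members and 604 of all genes (5.84%). These were Psmc6, a cap ATPase (-0.31, limma adjusted p = 0.792), and the lid subunit Psmd12 (-0.30, limma adjusted p = 0.751). Psmc6 read 9.42, 9.57 and 9.41 in vehicle, 9.23, 9.06 and 9.18 in CMS25, and 9.24, 9.65 and 9.41 in CMS50, so CMS25 lay below vehicle and CMS50 spanned both. Its other probe sets differed by -0.15 and -0.08 in CMS25.

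Members whose CMS25 arrays were all below the vehicle arrays numbered 7 (Psma1, Psma2, Psma4, Psmb1, Psmb4, Psmc6 and Psmd12). Of these, 5 were core particle genes, and 0 members were all above, while 7.65% and 4.45% of all genes were so placed. Psmb1 counted only narrowly, with its highest CMS25 array at 11.0041 and its lowest vehicle array at 11.0047. This count was not redone under other scalings. In sign, 6 members were higher and 28 lower in CMS25, and 15 and 19 both after cyclic loess scaling and with arrays centred on their median. The share of all genes on the higher side was 43.5%, 53.6% and 57.1% in these settings. The median change was -0.09 for the core particle, -0.02 for the cap and -0.02 for all genes. Centring, which raises every gene alike, gave -0.05 for the core particle, 0.02 for the cap and 0.03 for all genes, and cyclic loess gave -0.04, 0.02 and 0.01. The 95% intervals of the members' changes ran from -0.57 to 0.31 at their outer ends, with the spread estimated over all 9 arrays.

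The doses were then compared with each other. From CMS25 to CMS50, 4 members rose and 0 fell, which is 11.8% of the members against 30.3% of all genes (20.8% higher and 9.43% lower). The 4 were Psmb1, Psmb3 and Psmb4 of the β ring and Psmc3 of the cap. The CMS25 and the CMS50 arrays each serve here and in a comparison with vehicle, so the values are not independent of those above. The calls of Psmb4 and Psmc3 in both comparisons rest on the same CMS50 arrays. Psmb4 rose most, by 0.47 (SE 0.10, 1.38-fold, limma adjusted p = 0.0115), and its call held in all 20 alternatives, with adjusted p up to 0.0475. Psmc3 rose by 0.38 (SE 0.10, 1.30-fold, limma adjusted p = 0.0180), and its call was lost in 4 of 20 alternatives. With arrays centred on their median its rise was 0.25 (limma adjusted p = 0.067).

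Psmb1 read 11.005, 11.06 and 11.13 in vehicle, 10.92, 11.004 and 10.94 in CMS25, and 11.19, 11.30 and 11.20 in CMS50. Its CMS25 arrays were the lowest and its CMS50 arrays the highest, and it rose by 0.27 between the doses (SE 0.08, limma adjusted p = 0.0300). Psmb3 read 10.11, 10.08 and 10.14 in vehicle, 9.91, 10.09 and 10.00 in CMS25, and 10.35, 10.27 and 10.16 in CMS50. The CMS50 arrays were the highest, while CMS25 and vehicle overlapped, and the rise between the doses was 0.26 (SE 0.09, limma adjusted p = 0.0478). With arrays centred on their median these rises were 0.14 for Psmb1 and 0.13 for Psmb3 and neither was called. The call of Psmb1 was lost in 6 of 20 alternatives and that of Psmb3 in 13.

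The count of 4 was 2 without CMS25 replicate 1 and 1 without CMS25 replicate 3, CMS50 replicate 1 or CMS50 replicate 2. Calls over all genes dropped too, from 30.3% in either direction to 25.7%, 19.4%, 16.8% and 15.2% in these settings, in that order. Without CMS50 replicate 3 the lid subunit Psmd8 was called too (0.34, limma adjusted p = 0.0208). Centring moved the median of all genes by -0.13 in this comparison. It left 1 member called higher and 2 lower, the protease Psmb7 and the lid subunit Psmd6, and turned 2153 higher and 975 lower calls over all genes into 1307 and 1870.

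Of the members not called between the doses, Psmc6 (0.28, limma adjusted p = 0.0924), Psma1 (0.23, limma adjusted p = 0.0584), Psmd8 (0.21, limma adjusted p = 0.185) and Psmd2 (0.20, limma adjusted p = 0.0717) were highest, and Psmd6 (-0.21, limma adjusted p = 0.0979) and Psmb7 (-0.20, limma adjusted p = 0.177) lowest. The doses did not overlap, with CMS50 above, for 9 members (Psma1, Psmb1, Psmb3, Psmb4, Psmc3, Psmc6, Psmd14, Psmd2 and Psmd3; 30.4% of all genes), and with CMS50 below for 3 (Psmb7, Psmd6 and Psmd11; 15.3% of all genes). The median change was 0.09 for the core particle, 0.12 for the cap and 0.07 for all genes. Cyclic loess gave 0.08, 0.06 and 0.03, and centring gave -0.04, -0.01 and -0.06. The sign of these medians and the order of core particle and cap thus depended on the scaling. In sign, 28 members were higher in CMS50 than in CMS25, 24 after cyclic loess scaling and 12 with arrays centred on their median, beside 58.3%, 53.2% and 43.0% of all genes.

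**Figure D4:**
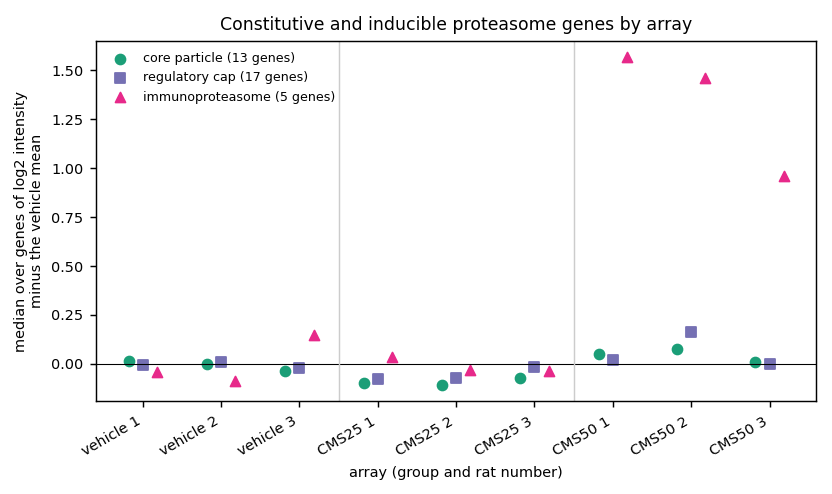
Median over genes of the log2 intensity minus the vehicle mean, on each array, for the 13 core particle genes, the 17 cap genes and the 5 immunoproteasome genes. The core particle runs from -0.11 to 0.08 and the cap from -0.08 to 0.16 over the 9 arrays, while the immunoproteasome genes stand at 1.57, 1.46 and 0.96 in the 3 CMS50 rats.

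Core particle and cap were set side by side on each array. The core particle median stood 0.05, 0.08 and 0.01 above the vehicle mean in the CMS50 rats, and at -0.10, -0.11 and -0.07 in the CMS25 rats. The cap median stood at 0.02, 0.16 and -0.00071 in CMS50, and at -0.08, -0.07 and -0.01 in CMS25. The second CMS50 rat had the highest median of both. These array values are on the deposited scale only. The median change from vehicle to CMS50 was 0.05 for the core particle and 0.04 for the cap on that scale. It was 0.08 and 0.04 after cyclic loess scaling, and -0.04 and -0.05 with arrays centred on their median.

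Other genes of the pathway were read from lists chosen with earlier results of these arrays known. All 5 immunoproteasome genes rose in CMS50, with a median change of 1.33, among them the activator subunits Psme1 (0.50, limma adjusted p = 0.0088) and Psme2 (0.91, limma adjusted p = 0.0027). Averaged over its probe sets, Psme1 differed by 0.19 and was not called. Of 4 cap-bound genes with other symbols, the deubiquitinase Uchl5 fell by 0.36 (SE 0.09, limma adjusted p = 0.0155), a call lost without vehicle replicate 2, CMS50 replicate 1 or CMS50 replicate 2. Its arrays read 8.83, 8.84 and 8.83 in vehicle and 8.44, 8.45 and 8.53 in CMS50, with no overlap. The other 3 did not pass: the ubiquitin receptor Adrm1 (-0.07), the small subunit Sem1 (-0.08) and the deubiquitinase Usp14 (0.16).

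Of 3 alternative activators and inhibitors, the activator Psme4 rose by 0.46 (limma adjusted p = 0.0249) and the adaptor Ecpas by 0.38 (limma adjusted p = 0.0085). Averaged over their probe sets neither was called, at 0.27 for Psme4 and 0.00029 for Ecpas, and the call of Psme4 was also lost without vehicle replicate 1, vehicle replicate 2 or CMS50 replicate 1. Of 5 core particle assembly chaperones, 2 genes of ubiquitin activation and 8 shuttle factors and segregase genes, 0 passed the test, with median changes of 0.12, 0.13 and -0.03. On the NFE2L1 axis, 6 of 8 genes passed the minimum. Nfe2l1 itself differed by 0.04 (95% interval -0.23 to 0.30, limma adjusted p = 0.838), with overlapping arrays. Mafg, a small partner protein of this factor family, rose by 0.46 (SE 0.10, limma adjusted p = 0.0116), a call that held in all 20 alternatives. The protease Ddi2 fell by 0.52 (limma adjusted p = 0.0380) and the deglycosylase Ngly1 by 0.39 (limma adjusted p = 0.0354), both of which process NFE2L1 into its active form. The call of each was lost without vehicle replicate 1, 2 or 3 or without CMS50 replicate 1 or 2, and Ddi2 averaged over its probe sets differed by -0.23.

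Several members were read by more than 1 probe set, 45 in all for the 34 genes, and 7 genes had more than 1. In CMS50 against vehicle, the 3 probe sets of Psmc6 gave -0.03, 0.06 and 0.22. Those of Psmd14 above the minimum gave 0.04 and -0.19, so its sign depended on the probe set. Those above the minimum gave -0.12 and -0.09 for Psmd11, -0.01 and -0.09 for Psmd7, and 0.09 and 0.06 for Psmd9. None of the other probe sets above the minimum was called in any comparison when tested on its own with limma.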

How the data were processed

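Kidney RNA of 9 rats was measured on Affymetrix rat expression arrays, 1 per rat. The authors deposited log2 values per probe set, made by RMA in Affymetrix Expression Console per the submitters' processing notes; versions are not given in the sources used here. No read depth exists for arrays, and 3 arrays per group limit the precision. RMA equalises the distribution of probe intensities between arrays, so a shift common to most genes would be removed. Of 31042 non-control probe sets, 20826 list 1 gene symbol, 436 list several and 9780 list none in the annotation used. The probe set with the highest mean stood for each of 14217 genes, and genes with a mean log2 of 5 or more were kept. Groups were compared in 1 fit over all 9 arrays by limma 3.58.1 (R 4.3.3; lmFit, then eBayes), with 3 contrasts and Benjamini-Hochberg adjustment. The fit was also run on simulated data without a shift common to the genes of an array, which cannot show how far the scaling matters. Figures were drawn with matplotlib 3.10.9. The symbols of 34 of 34 members were the same in a current RefSeq gene table, and promoters came from RefSeq on GRCr8. Every member is named with at least 1 change; values on every array are given for called members, the catalytic subunits and some other members, the last chosen after their values were seen. Other pathway genes are named from fixed lists. The members and lists were chosen with earlier results of these data known. The alternatives were other scalings, minima, probe set rules and variance models, array weights, only 2 groups, the replicate number as a block, and each array left out.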

Additional observations from a re-analysis of the deposited data

How the results depend on the processing

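The counts of called members and the core particle and cap medians were recomputed under 20 alternatives per comparison. So were the single changes of members and listed pathway genes. Sign counts were recomputed only with cyclic loess scaling and with centring. The marker counts, the non-overlap counts, the counts by size of change and the ratios of paired subunits were not recomputed. Higher calls in CMS50 against vehicle, 3 as reported, were 0 with arrays centred on their median, 1 with only the 2 groups compared and 0 to 2 with 1 array left out. Of all genes, 29.9%, 31.2% and 16.3% to 34.3% were called in either direction in these settings. Lower calls, 0 as reported, were 2 with centring (Psma2 -0.26, limma adjusted p = 0.0402; Psmd12 -0.33, limma adjusted p = 0.0375) and 1 with array weights (Psmd12 -0.26, limma adjusted p = 0.0361). Higher calls in CMS50 against CMS25, 4 as reported, were 1 with centring, 2 with only the 2 groups compared and 1 to 5 with 1 array left out. Of all genes, 30.7%, 20.9% and 15.2% to 34% were called in either direction in these settings. Lower calls, 0 as reported, were 2 with centring (Psmb7 -0.34, limma adjusted p = 0.0449; Psmd6 -0.35, limma adjusted p = 0.0266). In CMS25 against vehicle both counts were 0 under all 20. Averaged over its probe sets, the change of Ecpas from CMS25 to CMS50 turned from 0.41 to -0.081 (limma adjusted p = 0.455). The cause was not tested.

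With the replicate number as a block, higher calls were 1 in CMS50 against vehicle and 3 in CMS50 against CMS25. Of all genes, 27.7% and 27.6% were called in either direction with this block. No pairing by replicate number was evident. Deviations from the group means correlated from -0.18 to 0.26 over 9 same-numbered pairs, and from -0.23 to 0.22 over differently numbered pairs. Deviations within a group of 3 sum to 0, which constrains these correlations, so they cannot exclude a pairing.

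The 7 called member changes had 140 alternative values, of which 90 stayed past the threshold and 50 did not. Of 1900 values of changes not called, 9 passed. A sign differed in 120 of 2040 values, called in neither setting. The 7 called changes all came from groups of 3 arrays that did not overlap. In each comparison the groups overlapped for most of the other members. Why calls were lost was not tested.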
